A study of Mus musculus with 5 samples.

Results

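Complement is a set of blood and tissue proteins that mark surfaces for removal, and 9 of its components and regulators were followed through the cells of the mouse mammary gland. The members were taken by symbol from the gene lists deposited with the counts, which hold 27998 genes: C1qa, C1qb and C1qc, C1ra, C2, C3, C4b, Cfb and Serping1. All 9 were found once in each of the 5 libraries. The glands came from female ovariectomized BALB/cj mice, 30 weeks old, a model of the gland after menopause, and were dissociated with collagenase and DNase and profiled by droplet-based single-cell RNA sequencing from the 3′ end of the transcripts.

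The 5 libraries differed in what the mice received for 1 week, starting 20 weeks after ovariectomy. The OVX library, titled Vehicle in the labels, came from mice given DMSO food and DMSO injections. The E2 library came from mice injected daily into the peritoneum with 1 µg of the estrogen estradiol per animal, and the E2+P4 library from mice also given 0.1 mg of progesterone per animal. The E2+PBDE and E2+P4+PBDE libraries came from mice on the same hormones that ate food with polybrominated diphenyl ethers, flame retardants that interact with estrogen receptor α: per kg of food, 7.1 mg of BDE-47, 0.9 mg of BDE-153 and 0.4 mg of BDE-100. The groups without PBDE ate matched food with DMSO. Ovariectomy was common to all groups, and no library came from intact mice or from mice on PBDE without hormone. Each group was 1 library of about 4000 loaded cells, and how many mice stood behind it is not given in the labels. Library and treatment therefore cannot be told apart, no test between treatments was made, and every interval below covers counting error only.

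The libraries held 14317 barcodes after filtering, with totals of 19982067 to 42012988 transcripts counted by unique molecular identifier (UMI) and medians of 5345 (OVX), 8698 (E2), 8116 (E2+PBDE), 7861 (E2+P4) and 5348 (E2+P4+PBDE) UMIs per cell. Any pair of libraries shared 3 to 15 barcode sequences. Clusters were named by marker genes, with all complement genes kept out of the clustering, and gave 7261 fibroblast-like cells, 2543 hormone-sensing luminal (L-Hor-like) cells, 1120 alveolar luminal (L-Alv-like) cells, 407 basal-like cells, 235 endothelial-like cells, 142 macrophage-like cells, 122 dendritic-like cells and 65 T/NK-like cells. A further 1946 cells lay in luminal clusters that carried markers of both luminal classes, 270 in proliferating luminal clusters, 184 in hematopoietic clusters without a type and 22 in other mixed clusters, and none of these enter the named types. A level below is the summed UMIs of a gene per 1000000 UMIs of those cells (CPM), with its exact Poisson 95% interval. The kit gives 1 UMI per captured transcript end, so levels were not divided by transcript length and are not compared between genes.

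Complement is started by the classical pathway when the C1 complex binds a surface: C1q, made of chains encoded by C1qa, C1qb and C1qc, recognizes the target. Of the proteases held to it, C1r activates C1s, which then cuts C4 and C2. Their fragments form an enzyme that cleaves C3, the step at which the pathways meet, and C3 fragments coat the target for uptake by phagocytes. Factor B, the product of Cfb, joins a C3 fragment in the alternative pathway, which amplifies the deposition, and the C1 inhibitor, the product of Serping1, inactivates C1r and C1s. In blood most of these proteins come from the liver, while C1q is known for its production by macrophages, and fibroblasts are known local sources of several others.

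In the mouse genome (GRCm38, GENCODE M21) the members lie on 4 chromosomes. The C1q chain genes are neighbours on the minus strand of chromosome 4, C1qb at chr4:136880129-136886187, C1qc at chr4:136889804-136893065 and C1qa at chr4:136895917-136898803. C4b, Cfb and C2 lie in the histocompatibility region of chromosome 17, also on the minus strand, with C4b at chr17:34728380-34743882, Cfb at chr17:34856374-34862518 and C2 at chr17:34862604-34898265, with 85 bases between Cfb and C2. C3 lies at chr17:57203970-57228136 on the minus strand, C1ra at chr6:124512405-124523443 on the plus strand and Serping1 at chr2:84765387-84775444 on the minus strand. Because reads were counted near the 3′ end, near-identical ends matter: of the 50-base windows in the last 500 transcript bases, 38.1% of those of C4b are also in C4a, which was not analysed here, 19.1% of those of C1ra are also in C1rb, and 91.6% of those of Cfb are also in the overlapping gene Gm20547, which had 0 UMIs. The levels of C4b, C1ra and Cfb are uncertain to that extent, while the other members shared no such window with another gene.

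The 250 bases before the start of C3 and of C1qb are shown as 1 example each of the fibroblast and the macrophage pattern described below, from the 4 members whose promoters were in the table. They are RefSeq sequences on GRCm38.p6, written 5′ to 3′ on the minus strand, at chr17:57228137-57228386 for C3 and chr4:136886201-136886450 for C1qb, and capitals mark the motif matches given after them.
C3: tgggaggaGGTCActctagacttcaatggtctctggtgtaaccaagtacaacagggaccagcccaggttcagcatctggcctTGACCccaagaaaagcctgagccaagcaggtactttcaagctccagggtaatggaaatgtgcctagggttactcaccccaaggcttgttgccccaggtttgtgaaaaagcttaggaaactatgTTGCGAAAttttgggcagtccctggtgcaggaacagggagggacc
C1qb: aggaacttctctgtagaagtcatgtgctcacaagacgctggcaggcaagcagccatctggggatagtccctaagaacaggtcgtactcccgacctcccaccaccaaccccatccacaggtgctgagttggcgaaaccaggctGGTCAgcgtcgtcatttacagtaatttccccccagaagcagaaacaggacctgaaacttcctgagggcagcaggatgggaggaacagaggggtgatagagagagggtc
The motifs were searched on both strands: the interferon-gamma-activated site TTCNNNGAA, the interferon response element part GAAANNGAA, the estrogen response half-site GGTCA, the NF-kB motif GGGANNTTC and the C/EBP motif TTGCNNAA. The C3 window held GGTCA from 242 to 238 bases and its reverse complement TGACC from 168 to 164 bases before the start, and the C/EBP motif as TTGCGAAA from 45 to 38 bases before it. The C1qb window held GGTCA from 108 to 104 bases before the start. Promoters of 4 members were in the table (C1qb, C1qc, C1ra and C3), of which 3 held the estrogen response half-site, 1 the C/EBP motif and 0 the other motifs. Among 32851 mouse promoters of the same length, 35.2% held the half-site, 9.56% the C/EBP motif, 7.02% the interferon-gamma-activated site, 7.13% the interferon response element part and 3.23% the NF-kB motif. These matches describe letters in a window, and binding was not measured.

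Across the gland the members fell into 2 patterns. C1qa, C1qb and C1qc were highest in macrophage-like cells in each of the 5 libraries, and their range over libraries did not overlap that of the next cell type. C1ra, C2, C3, Cfb and Serping1 were highest in fibroblast-like cells, again with no overlap with the type next in median level. Cfb in L-Alv-like cells of OVX, 17.2 CPM from 32 cells, nevertheless lay above the lowest fibroblast-like value of 16.7 CPM. C4b was the exception: its fibroblast-like range, 202 to 269.6 CPM, lay within the basal-like range of 93.8 to 434 CPM. These orders describe 5 libraries of different treatments, not replicates of one. The hematopoietic clusters without a type were not in the order, and Serping1 stood at 118 to 1462 CPM and C1ra at 24.3 to 181 CPM in them.

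**Figure D1:**
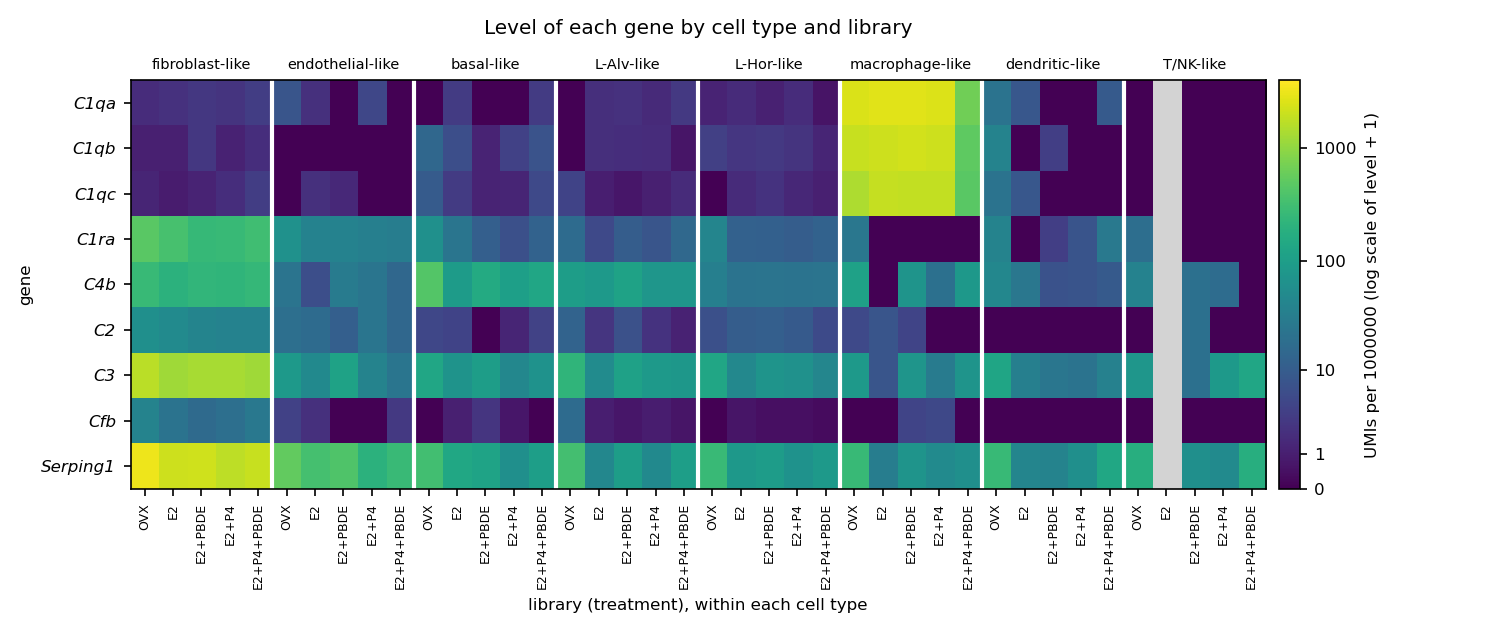
Heatmap of the level of each of the 9 members on a log scale (rows) in the 5 libraries of each of 8 cell types (columns); grey columns are profiles with fewer than 7 cells and are not drawn. The C1q chains are highest in the macrophage-like columns and C1ra, C2, C3, Cfb and Serping1 in the fibroblast-like columns, while C4b is high in fibroblast-like, basal-like and L-Alv-like columns.

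C1q, the recognition part of the C1 complex, came from few cells. C1qa stood at 2493 (95% interval 2276 to 2726), 2738 (2455 to 3045), 2734 (2522 to 2958), 2549 (2330.4 to 2782) and 668 (517 to 850.2) CPM in the macrophage-like cells of the OVX, E2, E2+PBDE, E2+P4 and E2+P4+PBDE libraries. C1qb stood at 1982, 2088, 2254, 2085 and 516 CPM in the same order, and C1qc at 1440.3, 1943, 1886, 1830.1 and 476 CPM. For each chain 4 libraries stood close together and E2+P4+PBDE apart below them. In fibroblast-like cells the levels were 1.89 to 3.5 CPM for C1qa, 1.04 to 2.82 CPM for C1qb and 0.893 to 3.5 CPM for C1qc. The 65 T/NK-like cells held 0 UMIs of any chain, which allows up to 9.35 CPM for each over the 5 libraries. Macrophage-like cells made up 0.763% to 1.19% of the cells of a library and held 86.7%, 81.0%, 82.4% and 88.0% of its C1qa UMIs in OVX, E2, E2+PBDE and E2+P4, against 53.2% in E2+P4+PBDE.

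The macrophage-like cells were 2 clusters, and the C1q levels differed between them although no complement gene was used to make them. Cluster 1, with 77 cells, was led by Apoe, Mmp12, Ms4a7 and Trem2, genes of lipid handling and tissue macrophages, and by the C1q chains themselves. Cluster 2, with 65 cells, was led by Retnla, Lyz1, Ear2 and Cfp. Both carried the macrophage markers Csf1r, at 263 to 405 CPM in cluster 1 and 77.6 to 168 CPM in cluster 2, and Adgre1, at 98.6 to 278 and 68.3 to 186 CPM, while Mrc1, the mannose receptor, stood at 0 to 16.9 CPM in cluster 1 and 171 to 458 CPM in cluster 2. Cluster 2 also carried the dendritic marker Cd209a, at 195, 390.3, 972, 621 and 198 CPM, against 1252, 197, 416, 289 and 251 CPM in dendritic-like cells and 0 to 11 CPM in cluster 1. Its Ms4a7 stood at 0 to 65.4 CPM and its Trem2 at 0 to 103 CPM, its Adgre1 in OVX was that of dendritic-like cells (68.3 CPM in both), and the dendritic marker Flt3 stood at 0 to 9.35 CPM in it against 28.7 to 74 CPM in dendritic-like cells. The macrophage name of cluster 2 is therefore less sure than that of cluster 1, and the values over all macrophage-like cells rest on it. UMIs of all 3 chains were found in 76 of the 77 cluster 1 cells and of at least 1 chain in every one of them. In cluster 2, 56 of 65 cells held none, 3 held 1 or 2 chains and 6 held all 3. For comparison, 3 of 7261 fibroblast-like cells and 1 of 122 dendritic-like cells held all 3 chains, and 7052 and 117 of them held none. Median depths were alike, at 4696 to 6645 UMIs per macrophage-like cell and 4252 to 7031.5 per fibroblast-like cell by library, and after thinning every cell to 3000 UMIs C1qa was found in 0.468% to 0.991% of fibroblast-like cells (1.01% to 1.72% unthinned).

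Within cluster 1 the C1qa level was 4996 (4548 to 5476), 4046 (3626 to 4502), 4638 (4258 to 5042), 3796 (3471 to 4144) and 3609 (2786 to 4600.4) CPM from OVX to E2+P4+PBDE. C1qb stood at 3900.0, 3101, 3903, 3105 and 2721 CPM and C1qc at 2848, 2897, 3219, 2726 and 2554 CPM in the same order. The E2+P4+PBDE library, with 4 cluster 1 cells, was the lowest for each chain but near the others, and its C1qa interval overlapped that of E2, E2+P4 and, narrowly, E2+PBDE and OVX. The chains kept a similar proportion: C1qb was 0.754 to 0.842 times and C1qc 0.57 to 0.718 times C1qa in UMIs of this cluster. A cluster 1 cell held a median of 48, 62, 81, 48.5 and 38.5 C1q UMIs. In cluster 2 C1qa stood at 264, 73.2, 626, 0 and 12.4 CPM, and the 0 of the E2+P4 library, from 10 cells, allows up to 46.6 CPM.

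Between libraries, the C1q ratios in macrophage-like cells stayed inside 1.5-fold in 3 comparisons and passed it in both that involve E2+P4+PBDE. Only genes were compared whose UMIs in the 2 libraries summed to 100 or more, and of these 19.3% were at least 1.5-fold apart between E2 and OVX, 9.65% between E2+P4 and E2, and 15.6% between E2+PBDE and E2, and 0 of the 3 C1q chains were so in any of them. C1qa ratios there were 1.10, 0.930 and 0.997. The E2+P4+PBDE library was lower than E2+P4 for 3 of 3 chains, against 27.5% of all genes tested past that fold, with C1qa at 0.266 times (0.2 to 0.339), C1qb at 0.252 times and C1qc at 0.265 times the E2+P4 level. The E2+P4+PBDE library was lower than E2+PBDE for 3 of 3 chains too, against 25.9% of all genes in either direction and 15.9% lower. The chains were at 0.248, 0.233 and 0.257 times the E2+PBDE level. Both comparisons share the E2+P4+PBDE library, where cluster 1 made up 4 of the 20 macrophage-like cells. In the other libraries it made up 19 of 37 (OVX), 11 of 17 (E2), 17 of 32 (E2+PBDE) and 26 of 36 (E2+P4). The part of this make-up in the C1q ratios was not tested. Within cluster 1 alone, 0 of 3 chains were past 1.5-fold in either comparison, with 18.6% and 20.1% of all genes past it. There C1qa was 0.964 times the E2+P4 level and 0.789 times the E2+PBDE level, C1qb 0.892 and 0.710 times, and C1qc 0.955 and 0.809 times.

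The same UMIs were also counted cell by cell, so these counts are not independent of the levels above. All 3 chains were detected in 22 of 37 macrophage-like cells (59.5%, Clopper-Pearson 95% interval 42.1% to 75.2%) in OVX, 11 of 17 (64.7%) in E2, 19 of 32 (59.4%) in E2+PBDE, 26 of 36 (72.2%) in E2+P4 and 4 of 20 (20.0%, 5.73% to 43.7%) in E2+P4+PBDE. Counting without any cell type name, barcodes with at least 10 C1q UMIs numbered 24, 13, 25, 27 and 6. The libraries held 3107, 2229, 3526, 3097 and 2358 barcodes. Of the barcodes past this cut, 21, 11, 19, 26 and 3 were macrophage-like. In E2+P4+PBDE 2 of the others lay in hematopoietic clusters without a type and 1 was fibroblast-like. The cut was applied without thinning, and the median depth of the libraries differed.

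**Figure D2:**
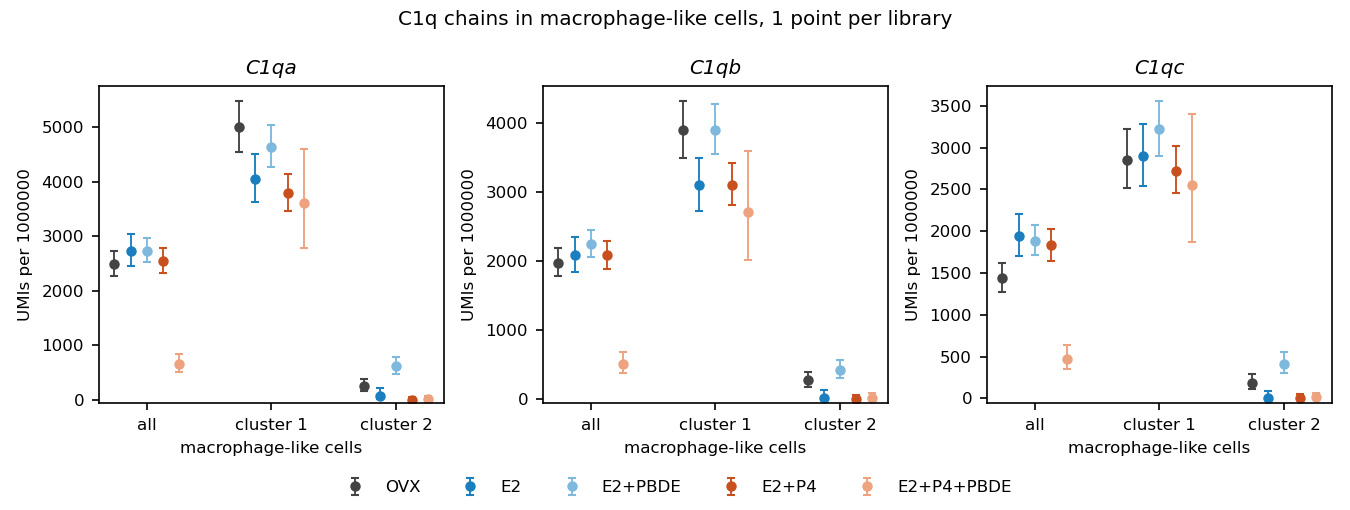
Levels of C1qa, C1qb and C1qc (CPM) in all macrophage-like cells, in cluster 1 and in cluster 2 of each library; points are libraries and bars exact Poisson 95% intervals of the counts. In all macrophage-like cells the E2+P4+PBDE point sits below the other 4 for each chain, at 668 CPM for C1qa, whereas within cluster 1 it stands at 3609 CPM beside 3796 to 4996 CPM.

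C1ra, the protease that activates the C1 complex, was a fibroblast gene. In fibroblast-like cells it stood at 478 (466 to 489.5), 353 (339 to 367), 258 (249.7 to 267), 269.8 (256 to 284) and 313 (296 to 331) CPM in OVX, E2, E2+PBDE, E2+P4 and E2+P4+PBDE. OVX was the highest, and E2+PBDE and E2+P4 the lowest. In macrophage-like cells C1ra was found only in the OVX library, at 25.8 CPM from 5 UMIs, while the 17 to 36 cells of the other libraries held 0, which allows up to 13.3 to 30.4 CPM. After thinning every cell to 3000 UMIs, 70.0%, 60.3%, 49.9%, 51.7% and 59.5% of fibroblast-like cells held a C1ra UMI (85.5%, 84.3%, 78.0%, 71.5% and 71.9% unthinned), against 8.0% of the 25 T/NK-like cells in OVX, the only library where these held a C1ra UMI. Median depths were 3913 to 7040 UMIs in the T/NK-like cells of the 4 libraries that had at least 7 of them.

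Serping1, whose product blocks C1r and C1s, followed the same cells. Its fibroblast-like level was 3270.0 (3239.8 to 3300.4), 2126 (2092 to 2162), 2203 (2179 to 2228), 1723 (1689 to 1758) and 1971 (1928 to 2015) CPM in the same order of libraries. OVX was again the highest and E2+P4 the lowest. Nearly every fibroblast-like cell held it after thinning, 91.4% to 99.5% by library, but so did 13.6% to 60% of the T/NK-like cells of the 4 libraries with at least 7 such cells, so a share of that size in another cell type reads as background. In endothelial-like cells Serping1 stood at 545, 341, 404, 205 and 275 CPM, against 182, 60.1, 52.6 and 178 CPM in the T/NK-like cells of the 4 libraries other than E2. The intervals of both types overlapped in E2+P4+PBDE alone, where the T/NK-like interval ran from 76.9 to 351 CPM.

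C4b and C2, whose products the C1 complex cuts to form the C3-cleaving enzyme, differed in where else they were found. C4b in fibroblast-like cells stood at 269.6 (261 to 278), 202 (191 to 213), 236 (228 to 244), 229 (217 to 242) and 249 (233 to 264) CPM, the narrowest spread between libraries of the 6 members with fibroblast levels above 10 CPM. C2 stood at 61.1 (57.1 to 65.4), 51.2 (46.0 to 56.9), 41.3 (38.1 to 44.8), 38.7 (33.7 to 44.2) and 38.7 (32.9 to 45.3) CPM, highest in OVX and lowest in the progesterone libraries. After thinning, 35.5% to 40.3% of fibroblast-like cells held C4b and 9.4% to 15.4% held C2. C2 was at 0 UMIs in the 122 dendritic-like cells, which allows up to 3.70 CPM over the libraries. In macrophage-like cells, known sources of both proteins in other tissues, C2 gave 0 to 8.03 CPM and Cfb 0 to 5.1 CPM, 1 UMI or none per library. C4b stood higher there, at 114 (71.2 to 172), 0, 71.0 (40.6 to 115), 20.4 (5.56 to 52.2) and 81.0 (35 to 159.6) CPM from 22, 0, 16, 4 and 8 UMIs. These were 42.1%, 0%, 30.1%, 8.91% and 32.6% of the fibroblast-like level, and 5 of 37, 0 of 17, 1 of 32, 2 of 36 and 3 of 20 macrophage-like cells held C4b after thinning. The 0 of the 17 cells in E2 allows up to 24.1 CPM.

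C3, the central component, and Cfb, its partner in the alternative pathway, were likewise fibroblast genes. C3 stood at 1688 (1667 to 1710.3), 1233 (1207 to 1259.8), 1365 (1346 to 1385), 1352 (1322 to 1383) and 1231 (1197 to 1266) CPM in fibroblast-like cells. Cfb stood at 39.2 (35.9 to 42.6), 22.8 (19.3 to 26.7), 16.7 (14.6 to 19.0), 19.4 (15.9 to 23.3) and 27.0 (22.1 to 32.6) CPM. Both were highest in OVX, with the other 4 libraries in different orders. C3 was detected in 71.2% to 85.7% of fibroblast-like cells after thinning, against at most 36.4% of T/NK-like cells in the 4 libraries with at least 7 of them, and Cfb in 4.6% to 9.9%. Cfb was at 0 UMIs in T/NK-like and in dendritic-like cells, which allows up to 9.35 and 3.70 CPM. Fibroblast-like cells, at 30.7% to 82.6% of a library's cells, held 81.4% to 95.9% of its C3 UMIs and 84.5% to 96.6% of its Cfb UMIs.

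The collagen gene Col1a1 stood at 2017 to 3939.6 CPM in fibroblast-like cells, against 68.7 to 191 CPM over the 3 epithelial types, and the keratin gene Krt14 at 3.8 to 14.2 CPM. The fibroblast-like cells formed 3 subsets, named from a marker list: a Pi16 subset of 4466 cells, a Col15a1/Inmt subset of 2000 cells and a Spon1 subset of 795 cells. Col15a1 was among the leading genes of both the Col15a1/Inmt and the Spon1 subset, and the Col15a1 marker score was 0.763 and 0.723 in them. Pi16 is known to mark fibroblasts of connective tissue around vessels and ducts, Col15a1 fibroblasts that lie in the tissue parenchyma. C3 was highest in the Pi16 subset in 5 of 5 libraries, at 2309.7, 1713, 1667, 2167 and 1459 CPM, intermediate in the Col15a1/Inmt subset at 851, 635, 949.6, 653 and 912 CPM, and lowest in the Spon1 subset at 483, 82.0, 160.0, 84.3 and 195 CPM. The groups of 5 values did not overlap between subsets. By cell, 96.1% to 99.3% of Pi16 cells and 15.8% to 53.4% of Spon1 cells held C3 after thinning.

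Serping1 and Cfb had the same order of their top subset. Serping1 stood at 3867, 2627, 2552, 2359 and 2252 CPM in the Pi16 subset, at 2439, 1675, 1789, 1299 and 1569 CPM in the Col15a1/Inmt subset and at 2384, 679, 717, 595 and 709 CPM in the Spon1 subset. The OVX library was the highest in every subset, and most clearly so in the Spon1 subset. Cfb stood at 51.4, 30.4, 19.9, 28.5 and 32.8 CPM in the Pi16 subset, at 23.6, 16.4, 14.0, 16.1 and 17.6 CPM in the Col15a1/Inmt subset and at 0 to 5.81 CPM in the Spon1 subset. The Spon1 cells of E2 and E2+P4 held no Cfb UMI, which allows up to 2.96 and 2.48 CPM.

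C4b and C2, in contrast, were highest in the Col15a1/Inmt subset. C4b was so in 5 of 5 libraries, at 292, 247, 344, 285 and 382 CPM, against 255, 220.4, 238, 269.6 and 235 CPM in the Pi16 subset and 267, 58.3, 64.0, 62.0 and 99.9 CPM in the Spon1 subset. C2 was so in 4 of 5 libraries, at 83.6, 84.9, 75.3, 57.1 and 73.1 CPM, against 30.7 to 43.9 CPM in the Pi16 subset. In OVX the Spon1 subset led for C2, at 103 CPM, with 32.5 to 39.7 CPM in the other 4 libraries. C1ra had no fixed order: its highest level was in the Pi16 subset in 3 libraries, in the Col15a1/Inmt subset in 1 and in the Spon1 subset in 1, OVX, at 603 CPM. In the smaller of the 2 Pi16 clusters C4b was lower than in the larger, at 100, 101, 113, 198 and 78.1 CPM against 298, 249.9, 280.1, 284 and 279 CPM. The larger cluster was above the Col15a1/Inmt subset in OVX and E2, and at 284 against 285 CPM in E2+P4. In OVX and E2 the C4b lead of the Col15a1/Inmt subset thus depends on counting the smaller cluster with the Pi16 subset. Since all these cells come from the same 5 libraries, the order of subsets within a library does not rest on the comparison between treatments.

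**Figure D3:**
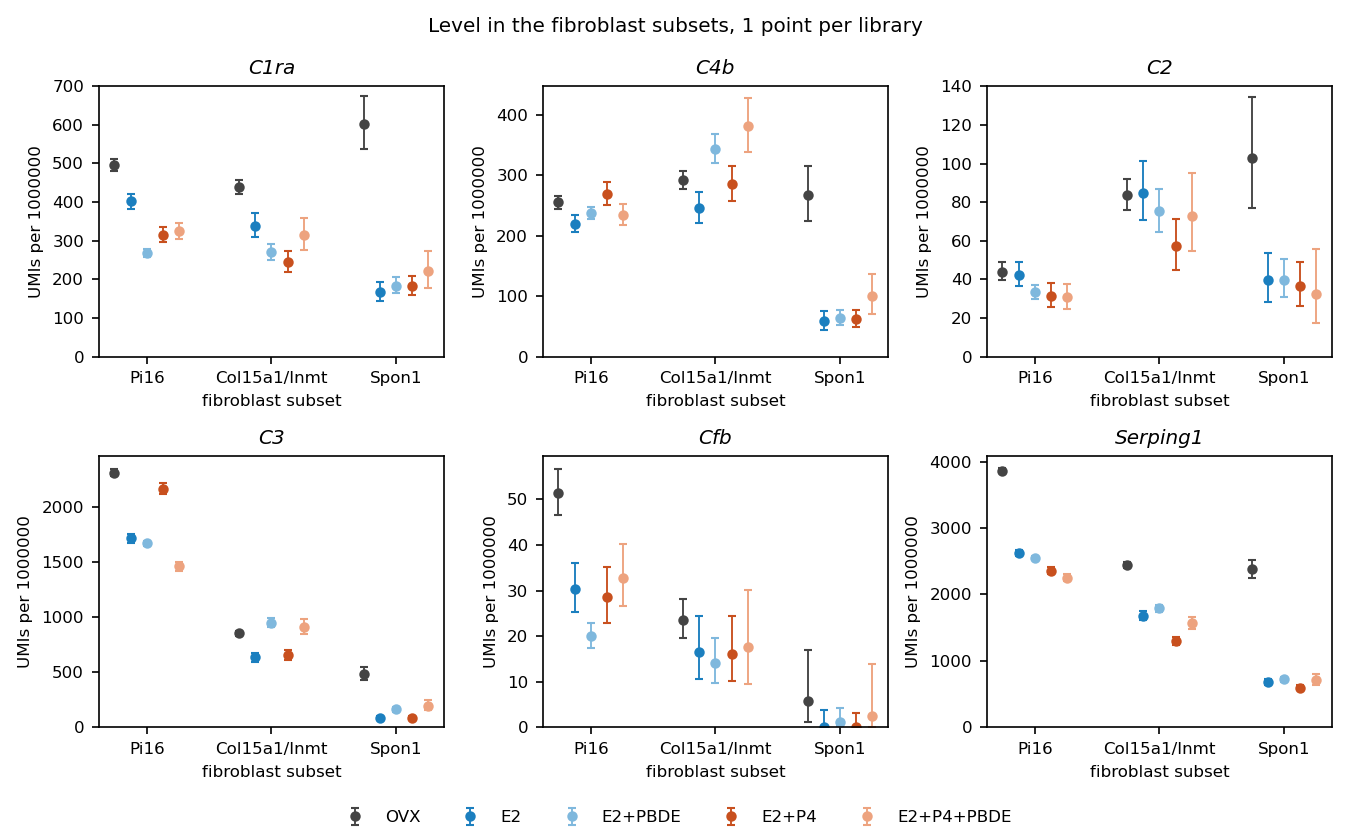
Levels (CPM) of C1ra, C4b, C2, C3, Cfb and Serping1 in the Pi16, Col15a1/Inmt and Spon1 fibroblast subsets; points are the 5 libraries and bars exact Poisson 95% intervals of the counts. C3, Cfb and Serping1 are highest in the Pi16 subset and C4b in the Col15a1/Inmt subset in every library, and the OVX point stands apart above the others in the Spon1 subset for C1ra, C4b, C3 and Serping1.

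C4b was the member with the clearest level in epithelium. In basal-like cells, the contractile outer layer of the ducts, it stood at 434 (372 to 503), 93.8 (75.3 to 115), 160.3 (134 to 191), 106 (90.6 to 124) and 134 (111 to 159) CPM. In L-Alv-like cells, the secretory lineage, it stood at 99.0, 83.8, 118, 76.7 and 75.8 CPM, and in L-Hor-like cells, which carry the hormone receptors, at 34.9, 22.7, 23.6, 22.9 and 22.9 CPM. The order from basal-like to L-Alv-like to L-Hor-like held in each library, although the basal-like and L-Alv-like intervals overlapped in E2. The T/NK-like cells gave 38.4, 20.0, 17.5 and 0 CPM in the libraries other than E2, which had 1 such cell, so the L-Hor-like level was close to that gauge. How far reads from the near-identical C4a enter these C4b values was not tested. After thinning, 81.7%, 19.7%, 45.3%, 26.4% and 31.2% of basal-like cells held C4b (95%, 57.7%, 75%, 54.1% and 62.5% unthinned), as did 19.9% to 34.4% of L-Alv-like cells, against at most 8.0% of T/NK-like cells in those 4 libraries and at most 6.9% of dendritic-like cells. Epithelial cells were the deeper ones, with medians of 5587.5 to 11465 UMIs per basal-like and 5511.5 to 11964 per L-Alv-like cell.

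Each epithelial level was then set as a percent of the level in fibroblast-like cells of the same library, beside Col1a1, Col3a1 and Dcn, matrix genes known as fibroblast products. C4b stood at 36.7%, 41.6%, 49.9%, 33.5% and 30.5% in L-Alv-like cells and at 161%, 46.5%, 68.1%, 46.5% and 53.8% in basal-like cells. The matrix genes stood at 1.92% to 7.25% in L-Alv-like cells and 3.21% to 12.1% in basal-like cells. The C4b interval lay above those of all 3 matrix genes in 5 of 5 libraries in both cell types, and in 2 of 5 libraries in L-Hor-like cells, where C4b stood at 9.22% to 13% and the matrix genes at 2.43% to 9.96%. The basal-like cells carried Krt14 at 1076 to 3895 CPM and Acta2 at 3183 to 7001 CPM, and the pericyte genes Rgs5, Des and Notch3 at 0 to 2.47, 0 to 3.96 and 0 to 14.7 CPM.

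The other members were less distinct in epithelium. C3 stood at 228, 54.3, 112, 83.5 and 78.7 CPM in L-Alv-like cells, 4.41% to 13.5% of the fibroblast-like level, above all 3 matrix genes in 5 of 5 libraries. In basal-like cells it was so in 1 of 5 libraries and in L-Hor-like cells in 0 of 5, and the T/NK-like levels of 20.0 to 134 CPM in 4 libraries overlapped those of all 3 epithelial types. C2 in L-Hor-like cells stood at 6.47, 10.7, 11.3, 9.61 and 5.46 CPM, 10.6% to 27.4% of the fibroblast-like level and above the matrix genes in 3 of 5 libraries. C1ra and Serping1 were above them in no library in any epithelial type. In endothelial-like cells, the lining of vessels, C2 was above the matrix genes in 3 of the 4 libraries with at least 30 such cells, at 26.8% to 38.3%, and Serping1 in 3 of 4, at 14.0% to 18.4%, with the matrix genes at 4.47% to 10.8%. The C2 percents rested on only 5, 8, 7 and 5 UMIs in OVX, E2, E2+PBDE and E2+P4+PBDE. The lower ends of their intervals were 10.3%, 14.3%, 10.7% and 12.25%, close to the matrix genes.

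**Figure D4:**
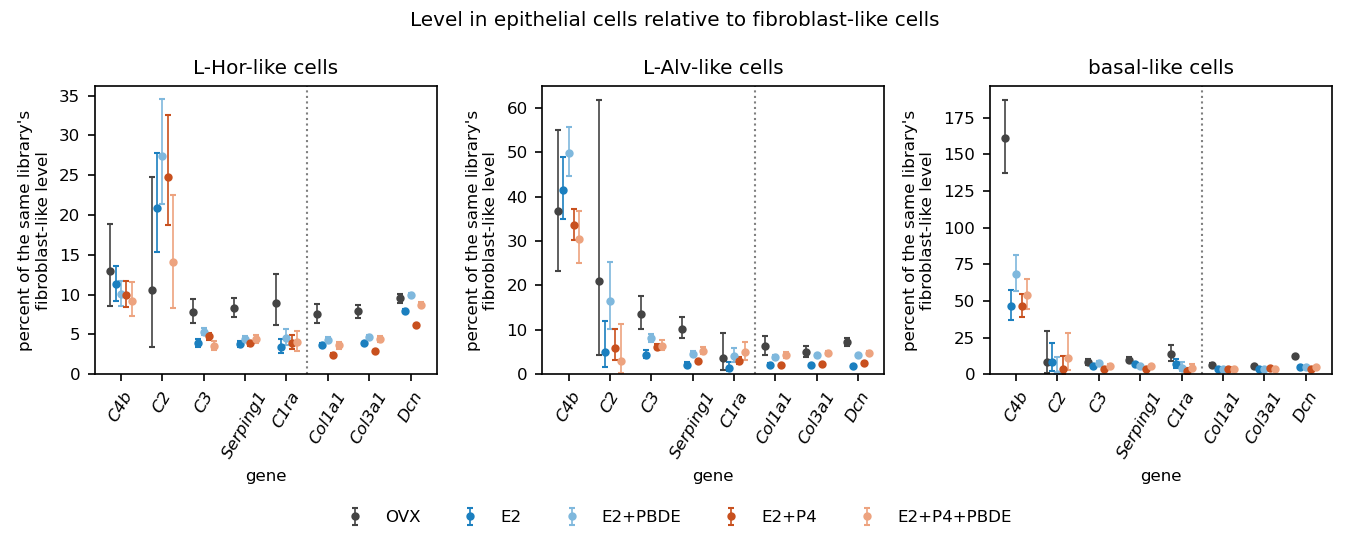
Level of 5 members and, right of the dotted line, 3 fibroblast matrix genes in L-Hor-like, L-Alv-like and basal-like cells. Levels are a percent (linear axis) of the level in fibroblast-like cells of the same library. Points are the 5 libraries with 95% intervals. C4b stands at 30.5% to 49.9% in L-Alv-like and 46.5% to 161% in basal-like cells, above the matrix genes, while C1ra and Serping1 lie among them.

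Between the OVX and the E2 library, the comparison that addresses estrogen in mice without ovaries, all 6 members tested in fibroblast-like cells were lower in E2. Serping1 was at 0.650 times (0.638 to 0.663) and Cfb at 0.585 times (0.483 to 0.698) the OVX level, past 1.5-fold, so 2 of 6 members were called, both lower, against 10.8% of the 9002 genes tested in either direction. C1ra was at 0.738 times (0.704 to 0.774), C4b at 0.748 times (0.702 to 0.796), C3 at 0.730 times (0.712 to 0.749) and C2 at 0.839 times (0.737 to 0.951). The median of the members was -0.45 on the log2 scale, that of all genes tested 0.04. Both calls lie near the limit: 4 alternatives put Serping1 within 1.5-fold at 0.670 to 0.721 times, and thinning every cell to 3000 UMIs put Cfb within it at 0.673 times. With a mitochondrial limit of 5%, C3 was past it as well, at 0.632 times. The dissociation stress list, 12 early response genes, stood beside this at 9827 CPM in OVX and 7671 CPM in E2, and its part in the result was not tested.

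By subset, the Pi16 cells had 1 of 6 members past 1.5-fold between E2 and OVX, Cfb at 0.595 times, against 8.82% of genes tested there, with Serping1 at 0.679 and C3 at 0.742 times. The Col15a1/Inmt cells had 0 of 6, against 13.6%, with Serping1 at 0.687, C3 at 0.747 and C4b at 0.846 times. The Spon1 cells had 4 of 4 tested members lower, against 25.9% of genes in either direction and 12.4% lower. They were C3 at 0.171 times (0.131 to 0.219), C4b at 0.220 times (0.158 to 0.298), C1ra at 0.278 times (0.228 to 0.335) and Serping1 at 0.285 times (0.259 to 0.313). The Spon1 cells of OVX were thus the ones that stood apart, with 118 cells. Other genes differed there too: Col1a1 was at 3349 CPM in OVX and 10310 CPM in E2, and the stress list at 20370 and 9480 CPM. Their part in the result was not tested. The basal-like cells also had 3 of 3 tested members lower in E2, against 39.3% of genes in either direction and 22.2% lower. They were C4b at 0.217 times (0.166 to 0.281), Serping1 at 0.441 times and C3 at 0.511 times. Of these, Serping1 was above the matrix genes in basal-like cells in 0 of 5 libraries and C3 in 1 of 5, and Dcn was lower there too, at 1681 CPM in OVX and 597 CPM in E2, so the Serping1 and C3 values are not read as levels of the basal-like cells themselves. The stress list stood at 13413 and 6828 CPM in these cells, and its part in the C4b value was not tested.

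With progesterone added to estrogen, 0 of 6 members were past 1.5-fold in fibroblast-like cells, against 5.89% of genes tested. C1ra was at 0.765 times (0.717 to 0.816), C2 at 0.757 times (0.635 to 0.898), Serping1 at 0.810 times (0.790 to 0.832) and Cfb at 0.852 times (0.658 to 1.09) the E2 level, while C4b was at 1.14 times (1.05 to 1.23) and C3 at 1.10 times (1.06 to 1.13). With PBDE added, between E2+P4+PBDE and E2+PBDE, the same hormone step gave 1 of 6, against 6.91%: Cfb at 1.62 times (1.28 to 2.04). There C1ra was at 1.21 times (1.14 to 1.29), C3 at 0.902 times (0.874 to 0.930) and Serping1 at 0.895 times (0.873 to 0.917). C1ra and C3 thus lay on opposite sides of 1 in the 2 comparisons, Serping1 below 1 in both. The median log2 ratio of all genes tested was -0.073 without PBDE and -0.008 with it.

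With PBDE added to estrogen, 0 of 6 members were past 1.5-fold in fibroblast-like cells, against 6.47% of genes. The median log2 ratio of all genes tested was -0.163. C1ra was at 0.732 times (0.695 to 0.771), Cfb at 0.731 times (0.595 to 0.904) and C2 at 0.806 times (0.705 to 0.925), C4b at 1.17 times (1.10 to 1.25), C3 at 1.11 times (1.08 to 1.14) and Serping1 at 1.04 times (1.02 to 1.06). With PBDE added to both hormones, 0 of 6 were past 1.5-fold, against 8.54%, and the median log2 ratio of all genes tested was -0.074. C1ra was then at 1.16 times (1.08 to 1.25), Cfb at 1.39 times (1.06 to 1.84) and C3 at 0.911 times (0.879 to 0.944), on the other side of 1 from the comparison without progesterone. Serping1, at 1.14 times (1.11 to 1.18), was above 1 as it was without progesterone. C4b, at 1.09 times, and C2, at 1.00 times, had intervals that include 1.

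The subsets did not share these PBDE values. In the Col15a1/Inmt cells C3 was at 1.495 times (1.39 to 1.62) with PBDE on estrogen and at 1.40 times (1.26 to 1.55) with PBDE on both hormones, and C4b at 1.39 and 1.34 times. None of the 5 tested members passed 1.5-fold there in either comparison, against 6.1% and 8.46% of genes, but with cells put in subsets by their highest mean marker level C3 passed it in the second, at 1.57 times. In the Spon1 cells C3 was past it in both, at 1.94 times (1.52 to 2.53), as the only call among 5 members against 7.31% of genes, and at 2.32 times (1.70 to 3.13), when C4b at 1.63 times was past it too, so 2 of 4 members were called against 9.02%. With subsets by highest mean marker level, C1ra and Serping1 were past it there too, at 2.57 and 2.59 times. The T/NK-like gauge for C3 stood at 20.0, 87.6 and 134 CPM in E2+PBDE, E2+P4 and E2+P4+PBDE, from 1, 10 and 6 UMIs. Dendritic-like cells gave 25.1, 22.8 and 37.2 CPM there. The Spon1 level of C3 in E2+P4, given above, was thus not above the T/NK-like gauge. How far background enters the Spon1 C3 ratios was not tested. In the Pi16 cells C3 was at 0.973 times (0.947 to 1.00) and 0.673 times (0.647 to 0.700). There 2 of 6 members were past 1.5-fold with PBDE on estrogen, C1ra at 0.665 (0.670 and not past it with the other naming of subsets) and Cfb at 0.654 times, against 6.9%, and 0 of 6 with PBDE on both hormones, against 5.73%. The C3 ratio was therefore above 1 in both PBDE comparisons in the Col15a1/Inmt and the Spon1 cells and at or below 1 in the Pi16 cells. The median log2 ratio of all genes tested was below 0 as well, at -0.165 and -0.052 in the Pi16 cells. There C3 at 0.973 times lay above that median and C3 at 0.673 times below it. That the subsets differ was not tested, since each comparison rests on 1 library a group. The Pi16 subset was the highest for C3. In E2, E2+PBDE, E2+P4 and E2+P4+PBDE it held 601, 1337, 515 and 646 of 942, 1918, 950 and 886 fibroblast-like cells. The part of this make-up in the ratios over all fibroblast-like cells was not tested.

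**Figure D5:**
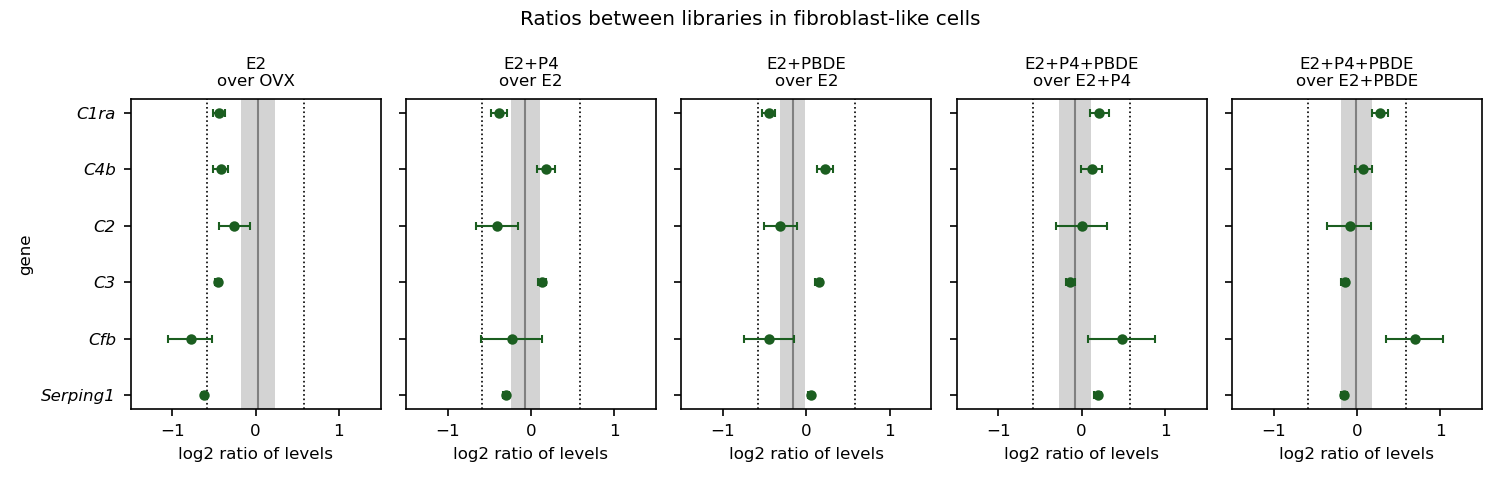
Ratio of levels (log2 axis) between libraries in fibroblast-like cells for the 6 tested members in 5 comparisons; points carry 95% intervals of the counts, the grey band spans the quartiles of all genes tested, the grey line is their median and dotted lines mark 1.5-fold. All 6 members lie below 0 between E2 and OVX, Cfb at 0.585 times and Serping1 at 0.650 times past the lower dotted line.

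Lists of interferon response, acute phase and NF-kB, and dissociation stress genes were summed beside the members. In fibroblast-like cells the interferon list of 12 genes stood at 341, 507, 461, 320 and 477 CPM, and the acute phase and NF-kB list of 10 genes at 4728, 3873, 6359, 4574 and 4738 CPM from OVX to E2+P4+PBDE. OVX, the highest library for the members, was the second lowest for the former and in the middle for the latter. The stress list stood at 9827, 7671, 5590, 5945 and 5678 CPM, highest in OVX. E2, the second highest for this list, was the lowest library for C4b, at 202 CPM. The part of these lists in the levels of the members was not tested.

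Beyond the members, 49 further complement genes were listed, of which 48 were measured and 6 had no UMI. In fibroblast-like cells 13, 11, 12, 11 and 12 of them had enough UMIs in the comparisons of E2 with OVX, E2+P4 with E2, E2+PBDE with E2, E2+P4+PBDE with E2+P4 and E2+P4+PBDE with E2+PBDE. Between E2 and OVX 2 were higher and 4 lower, against 10.8% of all genes past 1.5-fold in either direction. In the other comparisons, in that order, 2 were higher and 0 lower (5.89% of all genes), 0 and 2 (6.47%), 0 and 4 (8.54%), and 0 and 0 (6.91%). The proteases next to C1ra were also highest in OVX: C1s1, the other C1 protease, stood at 525, 385, 370.1, 375 and 321 CPM, C1s2 at 387, 231, 209, 260.3 and 229.8 CPM and C1rb at 366, 217, 172, 204 and 234 CPM in fibroblast-like cells. Of the 3′ end windows of C1rb, 43.2% are also in C1ra, so the C1rb levels are uncertain to that extent. Shared ends of C1s1 and C1s2 were not examined. C1rb, at 0.594 times, and C1s2, at 0.598 times, were among the 4 lower in E2, with Vtn at 0.291 times and with C7, which is named only because it was called, after its value was seen. Hc, which encodes C5, went the other way, at 6.92, 36.9, 44.9, 76.9 and 33.0 CPM: it was 5.31 times (4.2 to 6.84) the OVX level in E2, 2.08 times the E2 level in E2+P4 and 0.431 times the E2+P4 level in E2+P4+PBDE. Hc was a leading gene of the Spon1 subset. In the same order of libraries that subset held 118, 139, 250, 200 and 88 of 2565, 942, 1918, 950 and 886 fibroblast-like cells. Vtn was a leading gene of the Col15a1/Inmt subset, which held 1080 of 2565 cells in OVX and 202 of 942 in E2. The part of this make-up in the Hc and Vtn ratios was not tested. Among the membrane regulators Cd55 stood at 231, 208, 236, 180.0 and 237 CPM, and Cd59a was 2.09 times the OVX level in E2 and, with PBDE, 0.538 times the E2 and 0.505 times the E2+P4 level.

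In macrophage-like cells only Cfp, properdin, which stabilizes the alternative pathway enzyme, had enough UMIs besides C1q, and it marked the other cluster. It stood at 928, 805, 804, 884 and 632 CPM in cluster 2 and at 0, 12, 8.45, 22.8 and 167 CPM in cluster 1, the last from 4 cells. C1q and Cfp were thus high in different macrophage-like cells. Genes at 50 CPM or more in some cell type also included Clu, clusterin, at 1076, 597, 468, 538 and 360.0 CPM in L-Alv-like cells, and Cd93, at 213 to 331 CPM in endothelial-like cells. Others of that group were Fcna, Colec12, Cr1l, C3ar1, C5ar1, Itgam, Itgax and Itgb2.

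Over 46 profiles of a cell type or subset in a library, some genes outside complement had levels most like those of each member. Profiles needed 30 cells, so macrophage-like cells entered as a whole and not by cluster. They entered only from OVX, E2+PBDE and E2+P4, with 37, 32 and 36 cells. Those of E2 and E2+P4+PBDE, 17 and 20 cells, did not enter, nor did any T/NK-like cells. The C1q correlations thus rest on few profiles with a high C1q level. C1qa was most like Mmp12 (Pearson r = 0.92), Ms4a7 and Il1rn, C1qb most like Mmp12, Ms4a7 and Aif1, and C1qc most like Ms4a7 (0.96), Mmp12 and Retnla, although Retnla led cluster 2 and stood at 0 to 111 CPM in cluster 1, where C1q was high. C3 was most like Has1, Fndc1 and Ptx3 (each 0.96), Serping1 most like Rarres2 (0.98), Pcolce and Cd34, and C1ra most like Sod3, Adamts5 and Pcolce (each 0.97). C2 was most like Col6a3, Gnptg and Mxra7 (each 0.92) and Cfb most like Ackr3, Sfrp4 and Pnp. C4b had weaker matches, Ctsl (0.88), Fgfr1 (0.84) and Ptx3 (0.83). The profiles share libraries, depth and, for subsets, the cells of their type, so these values are a description.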

How the data were processed

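Per the labels and the study's methods, mammary glands of 5 treatment groups, 1 library each, were dissociated, depleted of dead cells without sorting and profiled with the Chromium 3′ v2 kit. The authors' UMI counts per gene and barcode were used as deposited; the submitters' processing notes name Cell Ranger 2.0.0 and mm10. Barcodes with at least 500 genes, at least 1000 UMIs and at most 10% mitochondrial UMIs were kept, which left out 27 of 14344.

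Clusters were made per library in Seurat 5.3.0 (R 4.3.3) from 2000 variable genes that included no complement gene, 10 principal components and 20 neighbours; the resolution was 0.5, and 0.3 for the OVX library. Fibroblast-like and hematopoietic-like barcodes were then pooled, scaled within each library and clustered again at resolutions of 0.3 and 1.0. Clusters were named from a marker list, and those with markers of 2 classes were left out as possible multiplets; Scrublet scores (scanpy 1.11.5) served as an alternative. The limits for naming a cluster and the pooled resolutions were set after the clusters were seen.

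UMIs were summed per gene, cell type and library with scipy 1.17.1 and pandas 2.3.3 (Python 3.11.15). With 1 library per group there was no test. Ratios, after adding 1 UMI to each sum, had exact conditional binomial 95% intervals, and a gene was called at 1.5-fold if both libraries together held at least 100 UMIs. A count of 0 was given the limit of 3 counts. For shares each cell was thinned to 3000 UMIs, and no cell was shallower. The ratio step was tested on simulated data.

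One item of the complement list is not reported here. Named were the 9 members, the other complement genes of at least 50 CPM in any cell type, the 3 genes outside complement with the highest Pearson correlation of log2(CPM + 1) with each member among genes of at least 20 CPM, in profiles of at least 30 cells, and markers. The members, lists and rules were chosen with earlier results of these data known. Alternatives were Scrublet scores, thinning, other UMI minimums, a 2-fold call, a mitochondrial limit of 5% and subtraction of a gauge level; others were added after seeing the data. A planned protein motif search was not run.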

Additional observations from a re-analysis of the deposited data

Results flagged for a closer look

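In fibroblast-like cells 3 members lay on opposite sides of 1 in the comparison that adds PBDE, depending on the hormones it was added to, with intervals that leave out 1 in both. C1ra was at 0.732 times the level without PBDE on estrogen alone and at 1.16 times on estrogen and progesterone. Cfb was at 0.731 and 1.39 times, and C3 at 1.11 and 0.911 times. The median log2 ratio of all genes tested was -0.163 and -0.074 there, so the side of 1 is not the side of the typical gene. C3 at 0.911 times lay inside the quartiles of all genes, -0.269 to 0.115 on the log2 scale. In the comparison that adds progesterone, C1ra was at 0.765 times without PBDE and at 1.21 times with it, and C3 at 1.10 and 0.902 times. Each value rests on 1 library per group, so the difference between the comparisons was not tested, and both pairs are made from the same 4 libraries, so they do not support each other. By subset, C3 did not cross 1 in the PBDE comparisons in the Col15a1/Inmt cells (1.495 and 1.40 times) or in the Pi16 cells (0.973 and 0.673 times). In the Spon1 cells it did not cross 1 either, with both values, given above, higher than 1. The C3 level of these cells in E2+P4 was, however, not above the T/NK-like gauge. In the Pi16 cells the C3 values lay on either side of the median of all genes, given above. The part of the subset make-up, given above, in the values over all fibroblast-like cells was not tested.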

How the results depend on the processing

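No paired analysis was possible because each group had 1 library. Of the single ratios of members recomputed under the alternatives, 406 stayed within their interval and 74 moved beyond it. The 406 include 45 each for the 2-fold call, the minimum of 50 UMIs and no minimum of UMIs. Those settings leave a ratio itself unchanged, so these counts say nothing of its stability. With median of ratios scaling in place of total UMIs, 36 stayed and 9 moved. In the subsets 117 ratios stayed and 37 moved, and of the levels 263 stayed and 16 moved. The sign of a called ratio was reversed in 0. The number of members past 1.5-fold changed as follows, and the cause was not tested. Between E2 and OVX in fibroblast-like cells it was 2 as reported, 1 without the 20% highest Scrublet scores, 0 with thinning to 3000 UMIs, 0 at 2-fold and 3 with a mitochondrial limit of 5%, where C3 joined at 0.632 times and an OVX cluster of 634 cells with fibroblast markers was named mixed and left out. Among settings chosen after seeing the data it was 1 with the dendritic-like level subtracted, 1 without the Spon1 subset and 4 with equal weight of the 3 subsets. Between E2+PBDE and E2 it was 0, and 1 with thinning. With no minimum of UMIs, where ratios of few counts enter, the fibroblast-like counts became 1 (E2+P4 with E2), 1 (E2+PBDE with E2), 2 (E2+P4+PBDE with E2+P4) and 2 (E2+P4+PBDE with E2+PBDE). The last of these, 1 as reported, was 0 at 2-fold and 2 with the T/NK-like level subtracted. In macrophage-like cells the count between E2 and OVX, 0 as reported, was 1 with a minimum of 50 UMIs and 5 with none. With none it was also 3 (E2+P4 with E2), 4 (E2+PBDE with E2) and 5 (E2+P4+PBDE with E2+P4). Macrophage cluster 1 alone, chosen after seeing the data, gave 0 in both comparisons of E2+P4+PBDE, against 3 and 3. With subsets by highest mean marker level, calls were gained in Col15a1/Inmt cells by C3 (1.57, E2+P4+PBDE with E2+P4), Cfb (0.537) and Serping1 (0.660, both E2 with OVX), and in Spon1 cells by C1ra (0.662), C3 (0.549) and Serping1 (0.623) in E2+P4 with E2, by C1ra (2.57) and Serping1 (2.59) in E2+P4+PBDE with E2+P4 and by C3 (1.59) in E2+P4+PBDE with E2+PBDE; the call of C1ra in Pi16 cells (0.670, E2+PBDE with E2) was lost. With pooled clusters scaled over all libraries, C2 in Col15a1/Inmt cells gained a call (1.502, E2 with OVX). Subtraction of the T/NK-like level was not run for comparisons with E2, which had 1 such cell. The Scrublet alternative left 27, 0, 2, 26 and 10 macrophage-like cells and gave a value there only for E2+P4+PBDE with E2+P4. Low counts limit Cfb and C2 most, with 108 to 538 and 155 to 840 UMIs per library in fibroblast-like cells, and the macrophage-like values, from 17 to 37 cells. The part of the sequence shared with Gm20547 in the low Cfb counts was not tested.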
